A study of Mus musculus with 4 samples.

Results

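The genes described here are 40 listed members of the antioxidant defence, among them the transcription factor Nrf2 and its targets, the glutathione and thioredoxin systems, aldo-keto reductases, metallothioneins and iron carriers. They were taken as a named list, chosen with earlier results of these data known. Of the 40, 37 were measured, among 19421 genes in all. Levels are log2 signals, on which a difference of 1 is a 2-fold change, and each gene was read from its brightest probe set. Prdx5, Prdx6 and Akr1b3 were not analysed here.

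Levels were compared in whole mouse retina after Nrl, the transcription factor that keeps rod photoreceptors in their fate, was deleted in the adult. The knockout group was Nrl(f/f);Cag-CreERT(+), with both Nrl alleles floxed, and the control group was Nrl(+/f);Cag-CreERT(+), in which 1 allele stayed intact. Every mouse therefore carried at least 1 floxed allele, the tamoxifen-dependent Cre driven by the broadly active CAG promoter, and the same treatment, 4-hydroxytamoxifen given daily from postnatal day 42 to 44. Retinas were taken on postnatal day 63. Each group had 2 arrays, and each array held RNA pooled from 4 retinas of 2 animals. The labels give no strain and no sex.

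Nrf2, the product of Nfe2l2, is held by Keap1, which marks it for destruction. When oxidants and electrophiles modify Keap1, Nrf2 accumulates and binds antioxidant response elements in front of genes for glutathione synthesis, thioredoxin recycling and detoxification. Metallothioneins are small cysteine-rich proteins that bind zinc and copper and answer to metals through metal response elements, and also to oxidants, glucocorticoids and cytokines. Photoreceptors use much oxygen and hold easily oxidised lipids, so the retina depends on these defences, in part through its Müller glia.

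Nrl itself had log2 levels of 7.57 and 7.05 in the knockout pools, against 8.21 and 8.13 in the control pools (log2 fold change -0.86, SE 0.18, limma adjusted p = 0.289). Rod markers, Nrl among them, were lower in 7 of 7 measured genes, 2 of them called, in the direction of the genotype labels. Whether the Nrl probes lie in the deleted stretch was not tested. Xist stood at 4.07 and 10.66 in knockout replicates 1 and 2 and at 4.09 and 10.47 in control replicates 1 and 2, so replicate 1 of each group was of the other sex than replicate 2. The differences within each replicate number are given below for this reason. In whole-tissue RNA a change in the number of cells of a type and a change in RNA per cell cannot be told apart.

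Of the 37 measured members, 1 rose and 0 fell in the knockout at a limma adjusted p under 0.05, and that gene was Akr1b8, at 1.95-fold. With the replicate number as a block, or without any of the 4 arrays in turn, limma called 0 members. Genes called higher made up 0.139% of all genes tested. At an unadjusted p under 0.05, 5 members were higher (13.5%, against 3.71% of all genes) and 0 were lower (against 3.37%). Since the list was chosen with earlier results of these data known, these shares are no test of it. The 5 were Akr1b8, the metallothioneins Mt2 and Mt1, the glutathione transferase Gstm1 and the thioredoxin reductase Txnrd1. The other 32 members, including Nfe2l2, Keap1 and the Nrf2 targets Nqo1, Hmox1, Gclc, Gclm and Srxn1, did not pass either threshold. Without knockout replicate 2 only 2 members had an unadjusted p under 0.05.

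The members as a whole lay close to no change. Their median log2 fold change was 0.03, against 0.00 over all genes, with 23 above 0 and 14 below. Both knockout pools lay above both control pools in 9 members (24.3%, against 17.0% of all genes) and below them in 2 members (5.41%, against 18.4%). In the remaining 26 the pools overlapped. The 95% interval of the difference lay inside a 1.5-fold change in either direction for 32 of the 37 members and inside a 2-fold change for 34. The 3 that reached past a 2-fold change were Mt1, Mt2 and Akr1b8.

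**Figure D1:**
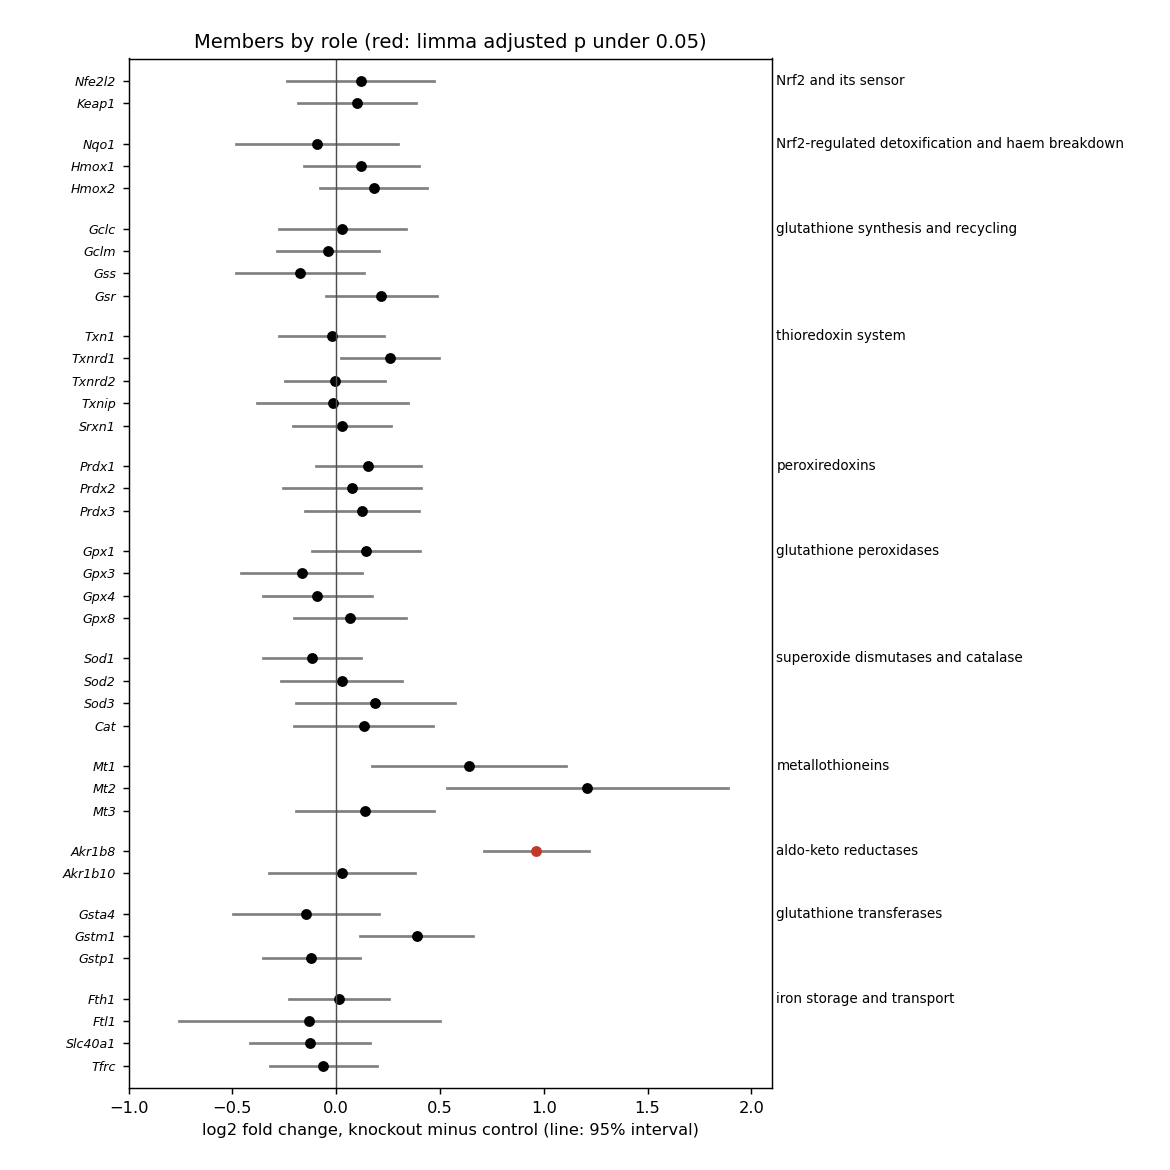
Log2 fold change of the 37 measured members, knockout minus control, ordered by role, with points for the difference of group means (2 pools each) and lines for its 95% interval from limma. Akr1b8, in red, is the called member at 0.96, Mt2 lies at 1.21 and Mt1 at 0.64, and all other members lie between -0.17 and 0.39.

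The promoters of the called gene and of the 3 metallothioneins are shown because Nrf2 and the metal sensor of metallothionein genes act through short elements in such windows. On chromosome 8 of RefSeq's GRCm38.p6 assembly the protein-coding genes run in the order Mt4, Mt3, Mt2 and Mt1. On chromosome 6, Akr1b3, Akr1b8 and Akr1b10 lie in a row, with pseudogenes between Akr1b8 and Akr1b10. The windows below, from RefSeq (GRCm38.p6, all on the + strand), run from 250 bases before to 50 after the start of the gene. Capitals mark matches to the antioxidant response element core TGACNNNGC and to the metal response element cores TGCACNC and TGCGCNC, searched on both strands.
Akr1b8, chr6:34353896-34354195: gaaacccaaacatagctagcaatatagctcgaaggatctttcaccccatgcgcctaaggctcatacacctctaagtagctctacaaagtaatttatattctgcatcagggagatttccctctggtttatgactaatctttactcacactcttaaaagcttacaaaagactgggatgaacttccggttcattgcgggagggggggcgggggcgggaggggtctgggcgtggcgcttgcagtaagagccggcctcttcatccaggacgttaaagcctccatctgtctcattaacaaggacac
Mt2, chr8:94172368-94172667: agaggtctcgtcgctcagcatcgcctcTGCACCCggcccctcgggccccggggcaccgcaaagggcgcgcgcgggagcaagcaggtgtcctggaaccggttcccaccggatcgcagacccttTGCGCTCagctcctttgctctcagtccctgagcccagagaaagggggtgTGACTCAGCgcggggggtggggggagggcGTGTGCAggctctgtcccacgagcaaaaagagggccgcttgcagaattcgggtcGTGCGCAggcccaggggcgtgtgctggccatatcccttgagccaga
Mt1, chr8:94178839-94179138: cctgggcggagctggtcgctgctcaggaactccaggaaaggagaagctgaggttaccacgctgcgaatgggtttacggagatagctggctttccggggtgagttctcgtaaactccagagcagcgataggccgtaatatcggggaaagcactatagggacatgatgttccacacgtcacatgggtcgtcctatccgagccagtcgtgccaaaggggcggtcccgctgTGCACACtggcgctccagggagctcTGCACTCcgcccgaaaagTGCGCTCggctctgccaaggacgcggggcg
Mt3, chr8:94152357-94152656: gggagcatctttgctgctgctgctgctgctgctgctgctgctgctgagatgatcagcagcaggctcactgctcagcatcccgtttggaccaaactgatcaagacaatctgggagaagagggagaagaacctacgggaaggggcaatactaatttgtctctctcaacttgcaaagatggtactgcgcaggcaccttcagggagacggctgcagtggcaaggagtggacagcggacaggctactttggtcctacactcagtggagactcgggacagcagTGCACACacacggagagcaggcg

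The Mt2 window held 4 metal response element matches and 1 antioxidant response element match, which ran from -79 to -71 relative to the start site. The Mt1 window held 3 metal response element matches and no antioxidant one, the Mt3 window held 1 metal match, and no match to these letters was found in the Akr1b8 window. The last Mt1 match ran from 21 to 27 after the start site given by RefSeq. Whether retina uses that start site was not tested, so the Mt1 and Mt2 windows may not cover corresponding stretches. None of the matches in these 4 windows overlapped another, whereas matches overlapped in the windows of Gclm and Tfrc. Windows were at hand for 31 measured members, counting 41 windows. The antioxidant core was found in 7 of these 31 genes (22.6%, against 14.0% of all 27025 genes with a window), which were Nfe2l2, Gclm, Txnrd1, Srxn1, Prdx1, Sod1 and Mt2. The metal response core was found in 10 of the 31 (32.3%, against 28.2% of all genes with a window). Of the 7 genes with the antioxidant core, Mt2 and Txnrd1 had an unadjusted p under 0.05. A match is a run of letters and not evidence of binding. Bases outside the windows, whether next to them or in enhancers further away, were not searched.

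Akr1b8 encodes a mouse aldo-keto reductase that reduces aldehydes, first described as a protein induced by fibroblast growth factor. Its log2 levels were 5.83 and 5.96 in the knockout pools, against 4.95 and 4.91 in the control pools. All of these lay below the array medians (5.99 to 6.04). Whether the control level is background was not tested, and if it is, the fold change is a ratio to that floor. The pools of each group lay within 0.13 of each other and the groups did not overlap. The mean was 5.89 ± 0.09 in knockout and 4.93 ± 0.03 in control (SD over the 2 pools of each group). The log2 fold change was 0.96 (SE 0.10, 95% interval 0.71 to 1.22, limma adjusted p = 0.0402), or 1.95-fold. It ranked 34th of all genes by p-value, and the differences were 0.88 in replicate 1 and 1.05 in replicate 2. The call was lost with the replicate number as a block (adjusted p = 0.119) and without any of the 4 arrays in turn (adjusted p from 0.170 to 0.432), while the log2 fold change lay between 0.90 and 1.03. Over all alternatives the adjusted p ran from 0.0175 to 0.432.

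Akr1b10, its close relative in the same cluster, had 5.50 and 5.88 in the knockout pools, against 5.65 and 5.68 in the control pools, so the knockout pools lay on either side of control. The log2 fold change was 0.03 (95% interval -0.32 to 0.38, limma adjusted p = 0.988). Whether probes of one of these relatives also bind the other was not tested.

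**Figure D2:**
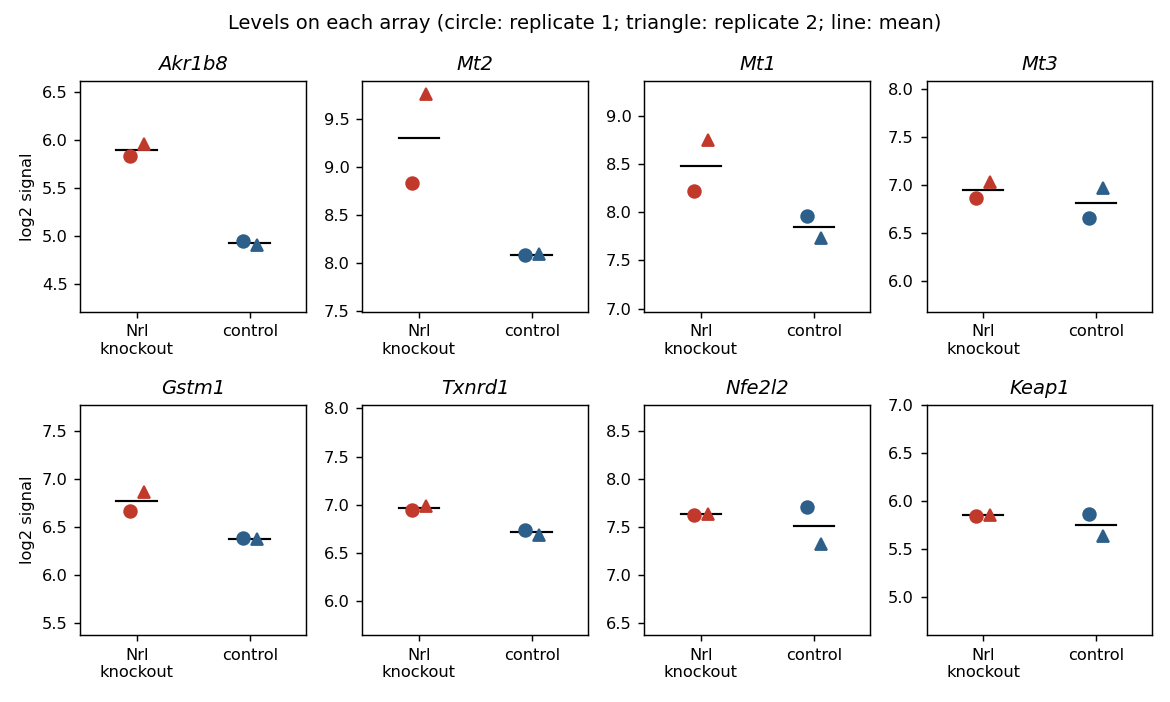
Log2 signal of 8 members on each array, knockout at left and control at right in each panel, with the mean of the 2 pools as a line; every panel spans the same number of log2 units. Akr1b8, Mt2, Mt1, Gstm1 and Txnrd1 have both knockout pools above both control pools, and Mt3, Nfe2l2 and Keap1 overlap.

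The metallothionein gene Mt2 had the largest difference of the 37 members. Its log2 levels were 8.84 and 9.76 in the knockout pools, against 8.08 and 8.10 in the control pools. The control pools were nearly level while the knockout pools stood 0.92 apart, the widest gap between pools of any member. The means were 9.30 ± 0.65 in knockout and 8.09 ± 0.01 in control (SD over the 2 pools of each group). The log2 fold change was 1.21 (SE 0.28, 95% interval 0.53 to 1.89), or 2.31-fold, which did not pass (unadjusted p = 0.00460, limma adjusted p = 0.358). The difference was 0.76 in replicate 1 and 1.66 in replicate 2, and whether these differ was not tested. Over all alternatives the adjusted p of Mt2 ran from 0.0578 to 0.707.

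Mt1, which encodes the other widely expressed isoform, had 8.22 and 8.75 in the knockout pools, against 7.97 and 7.73 in the control pools. The order of the arrays was that of Mt2 in the knockout, with replicate 2 highest, and the groups did not overlap. The log2 fold change was 0.64 (SE 0.19, 95% interval 0.17 to 1.11, unadjusted p = 0.0154, limma adjusted p = 0.562), with 0.25 in replicate 1 and 1.02 in replicate 2. Without knockout replicate 2 the differences were 0.37 for Mt1 and 0.75 for Mt2, and without knockout replicate 1 they were 0.91 and 1.67.

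Mt3, the isoform of neurons, had 6.87 and 7.04 in the knockout pools, against 6.66 and 6.97 in the control pools, and the groups overlapped. Its log2 fold change was 0.14 (95% interval -0.19 to 0.47, limma adjusted p = 0.914). Mt4, the isoform of stratified epithelia and no member of the list, had 0.16 (limma adjusted p = 0.845). Its signal lay below the 25th percentile of mean signal, so it may be background.

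**Figure D3:**
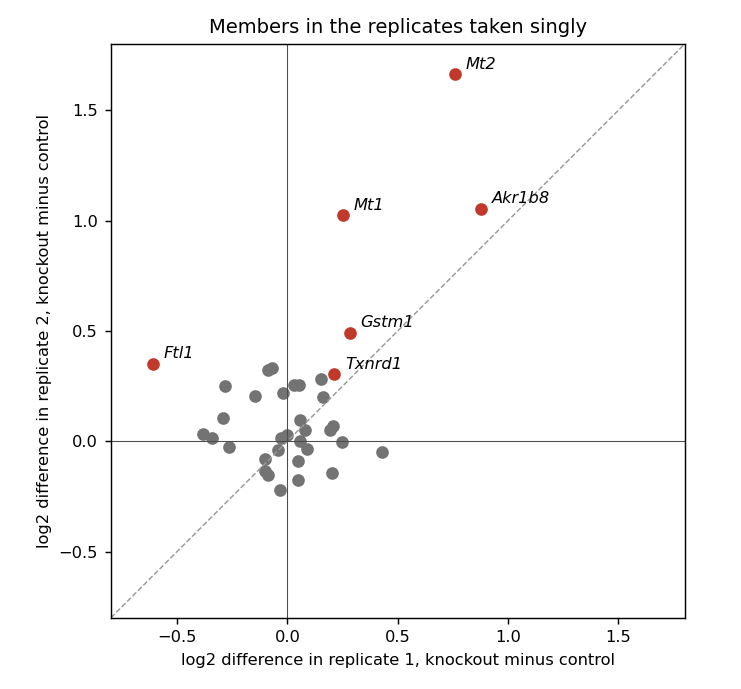
Log2 difference of each of the 37 members in replicate 2 (vertical axis) against replicate 1 (horizontal axis), knockout minus control, with the line of equal differences dashed and 6 named members in red, which here does not mark calls. Akr1b8 lies near the line, Mt2 and Mt1 lie above it, and Ftl1 had opposite signs in the replicates (-0.61 and 0.35).

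Markers of other cell types differed between the same arrays. The marker lists, too, were chosen with earlier results of these data known. Reactive glia markers were higher in 9 of 9 genes, 4 of them called, with a mean log2 level of 6.70 and 6.87 on the knockout arrays, against 5.84 and 5.78 on the control arrays. Microglia and macrophage markers were higher in 11 of 13 genes, 2 of them called, with 6.12 and 6.14 in knockout, against 5.60 and 5.69 in control. Müller glia markers were higher in 6 of 8 with no call (8.15 and 8.10 in knockout, against 8.01 and 7.95 in control). The largest rises among them were those of Clu (log2 fold change 0.89) and Vim (0.56), while Slc1a3 (0.02) and Aqp4 (0.01) lay near 0. The 2 lower ones were Glul (-0.37) and Rlbp1 (-0.32), so this list did not move as one. Cone markers were higher in 3 of 8, 1 of them called. Rod markers averaged 9.54 and 9.56 in knockout, against 10.66 and 10.64 in control. Markers of retinal pigment epithelium were lower in 7 of 8 genes with no call, at 6.58 and 6.57 in knockout, against 6.88 and 6.59 in control, so control replicate 1 stood above the other arrays. On the same array Ftl1 (6.35), Nqo1 (4.80) and Nfe2l2 (7.71) had their highest levels. So did Keap1, Gss, Gpx3, Gpx4, Sod1, Gsta4, Fth1 and Slc40a1, while the markers Best1 and Pmel were highest on other arrays. For Fth1 the level was 11.83 both there and in knockout replicate 1. The share of all genes that were highest on that array was not counted, so these members may not stand out. The part of pigment epithelium in these members was not tested. Lens markers were higher in 4 of 7, vascular markers in 4 of 7 and erythrocyte markers in 0 of 2, with no call in these lists. The part of these cell types in the levels of Akr1b8, Mt1 and Mt2 was not tested.

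The pair at the head of the Nrf2 pathway showed no difference beyond the spread of the pools. Nfe2l2 had 7.62 and 7.64 in the knockout pools, against 7.71 and 7.32 in the control pools. Keap1 had 5.85 and 5.85 in the knockout pools, against 5.87 and 5.64 in the control pools. In each gene the knockout pools lay between the control pools. The log2 fold changes were 0.12 (95% interval -0.24 to 0.47) and 0.10 (95% interval -0.18 to 0.38), with limma adjusted p-values of 0.943 and 0.937. Nrf2 is controlled mainly through the stability of its protein, which arrays do not measure.

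Genes that Nrf2 is best known to induce gave small differences. Nqo1, the quinone reductase often used as a readout of Nrf2, had 4.51 and 4.45 in the knockout pools, against 4.80 and 4.34 in the control pools. The control pools lay 0.45 apart, on either side of knockout, and the log2 fold change was -0.09 (95% interval -0.48 to 0.30). Like Mt4, Nqo1 fell below the filter on mean signal, so its levels may be background and a change could be missed. Hmox1, the inducible haem oxygenase, had 5.79 and 5.57 in knockout, against 5.54 and 5.58 in control (0.12, 95% interval -0.16 to 0.40). Hmox2, the constitutive haem oxygenase, had 7.91 and 7.81 in knockout, against 7.75 and 7.61 in control. Its groups did not overlap, but the difference of 0.18 had an unadjusted p of 0.139.

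Of the 4 genes that make and recycle glutathione, 2 lay above 0 and 2 below, and none had an unadjusted p under 0.05. Gclc and Gclm, the catalytic and modifier subunits of the rate-limiting step, had log2 fold changes of 0.03 and -0.04. Gss, which adds glycine in the last step, had -0.17, with -0.38 in replicate 1 and 0.03 in replicate 2. Gsr, which reduces oxidised glutathione, had 6.63 and 6.58 in the knockout pools, against 6.48 and 6.30 in the control pools. Its groups did not overlap, and the log2 fold change was 0.22 (95% interval -0.05 to 0.48, unadjusted p = 0.0948).

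In the thioredoxin system Txnrd1, the cytosolic thioredoxin reductase and a known Nrf2 target, stood apart by a small amount. It had 6.95 and 6.99 in the knockout pools, against 6.74 and 6.68 in the control pools, and no pool of the groups overlapped. The log2 fold change was 0.26 (SE 0.10, 95% interval 0.02 to 0.49, unadjusted p = 0.0370, limma adjusted p = 0.659), with 0.21 in replicate 1 and 0.30 in replicate 2. After median centring the unadjusted limma p of Txnrd1 was 0.0544. Its mitochondrial counterpart Txnrd2 had -0.01, thioredoxin itself, Txn1, had -0.02, and Srxn1, the sulfiredoxin that repairs peroxiredoxins, had 0.03. Txnip, which binds thioredoxin and limits glucose uptake, had -0.02, with -0.28 in replicate 1 and 0.25 in replicate 2.

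The peroxide-removing enzymes showed no member at an unadjusted p under 0.05. The peroxiredoxins Prdx1, Prdx2 and Prdx3, the first pair mainly cytosolic and Prdx3 mitochondrial, had 0.15, 0.08 and 0.12. Prdx1 had 8.43 and 8.52 in the knockout pools, against 8.38 and 8.27 in the control pools, without overlap, and a second probe set gave 0.18. Of the glutathione peroxidases, the cytosolic Gpx1 had 0.14 without overlap, the secreted Gpx3 had -0.17, Gpx8 of the endoplasmic reticulum had 0.06, and Gpx4, which reduces lipid peroxides and guards against ferroptosis, had -0.09. A second, dimmer probe set of Gpx4 gave 0.14, so the sign of Gpx4 depends on the probe set. Catalase, encoded by Cat, had 0.13, with -0.07 in replicate 1 and 0.33 in replicate 2.

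None of the 3 superoxide dismutases had an unadjusted p under 0.05. Sod1, the cytosolic copper and zinc enzyme, had 11.43 and 11.36 in the knockout pools, against 11.53 and 11.50 in the control pools. Both knockout pools lay below control, and the difference was -0.12 (95% interval -0.35 to 0.12, unadjusted p = 0.270). Sod2, the mitochondrial manganese enzyme, had 0.03, and the secreted Sod3 had 0.19, with 4.93 and 4.89 in the knockout pools, against 4.50 and 4.94 in the control pools. Sod3 also fell below the filter on mean signal, so its levels may be background.

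Among the glutathione transferases, which join glutathione to reactive compounds, Gstm1 had 6.67 and 6.87 in the knockout pools, against 6.38 and 6.38 in the control pools. The control pools were level and both knockout pools lay above them. The log2 fold change was 0.39 (SE 0.11, 95% interval 0.12 to 0.66, unadjusted p = 0.0127, limma adjusted p = 0.530), or 1.31-fold, with 0.28 in replicate 1 and 0.49 in replicate 2. Gstp1 had 9.51 and 9.49 in the knockout pools, against 9.59 and 9.64 in the control pools. Its knockout pools lay below control without overlap, and the difference was -0.12 (unadjusted p = 0.256). Gsta4, which handles the lipid peroxidation product 4-hydroxynonenal, had -0.15, with overlap. Whether probes of one Gstm gene also bind others was not tested, nor was this tested for Mt1 and Mt2.

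None of the 4 iron members had an unadjusted p under 0.05, and all 4 overlapped between groups. Fth1, the heavy subunit of ferritin, had 11.83 and 11.77 in the knockout pools, against 11.83 and 11.74 in the control pools, a log2 fold change of 0.01 (95% interval -0.23 to 0.26). Ftl1, the light subunit, had 5.74 and 5.87 in knockout, against 6.35 and 5.52 in control, far below Fth1. Whether its probe set reads Ftl1 alone was not tested. The control pools of Ftl1 stood 0.84 apart, and its interval, -0.76 to 0.50, was among the widest of the members. Slc40a1, the iron exporter ferroportin, had -0.13, and Tfrc, the transferrin receptor, had -0.06.

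The members are part of wider pathways, for which 7 further lists held 120 genes, 111 of them measured. Of these 111, limma called 0, and their median log2 fold change was -0.01. An unadjusted p under 0.05 was reached by 7 that were higher in knockout (6.31%, against 3.71% of all genes). It was also reached by 2 that were lower, a smaller share than the 3.37% of all genes. These lists, too, were chosen with earlier results of these data known, so these shares are no test of them. The 2 related genes with the largest differences carry metal. Cp, ceruloplasmin, the copper-bearing ferroxidase that glia use to release iron, had 9.47 and 9.73 in the knockout pools, against 8.96 and 8.69 in the control pools (log2 fold change 0.78, SE 0.14, unadjusted p = 0.00146, limma adjusted p = 0.231). Trf, transferrin, the iron carrier, had 8.16 and 8.55 in the knockout pools, against 7.60 and 7.52 in the control pools (0.79, SE 0.15, unadjusted p = 0.00164, limma adjusted p = 0.241). The groups did not overlap in either gene, and in both the difference was larger in replicate 2 (1.04 and 1.03) than in replicate 1 (0.51 and 0.56), as for Mt1 and Mt2.

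In the other 20 genes of the haem and iron list, 2 more had an unadjusted p under 0.05 and were named after their values were seen. Hamp, the iron hormone hepcidin, had 6.20 and 5.98 in the knockout pools, against 6.33 and 6.91 in the control pools (-0.53, unadjusted p = 0.0369). Ftmt, mitochondrial ferritin, had 0.29 (unadjusted p = 0.0414). In the list of metal handling, Slc39a1, a zinc importer, averaged 8.31 ± 0.05 in knockout and 7.94 ± 0.09 in control (SD over 2 pools each). Its log2 fold change was 0.37 (SE 0.10, unadjusted p = 0.0111, limma adjusted p = 0.504), the smallest p of the 13 genes of that list. With the mean of its probe sets in place of the brightest, the log2 fold change was 0.13 (unadjusted p = 0.236).

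Of 25 other genes of glutathione transfer and detoxification, Gstm3 had 0.28 (unadjusted p = 0.0288) and Gstm6 had -0.48 (unadjusted p = 0.0167), so Gstm relatives lay on opposite sides of 0. With the mean of its probe sets Gstm3 had 0.15 (unadjusted p = 0.374). Gstm6 had -0.28 without knockout replicate 1 and -0.67 without knockout replicate 2, and its low signal placed it below the signal filter. Among 9 genes of NADPH supply and cystine import, Pgls, an enzyme of the pentose phosphate pathway, had 0.25 (unadjusted p = 0.0469) and Ggt5 had 0.16. Among 12 NADPH oxidase genes Cybb, the catalytic subunit in phagocytes, had 4.99 and 5.01 in the knockout pools, against 4.54 and 4.76 in the control pools (0.35, unadjusted p = 0.0223), and Nox4 had -0.23. Cybb and Nox4 also fell below the signal filter, so their levels may be background. The microglia and macrophage markers given above were higher in the same arrays, and their part in the level of Cybb was not tested.

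None of 11 further regulators of the Nrf2 pathway had an unadjusted p under 0.05. Bach1, a repressor that competes for the same elements, had -0.14, and Mafk, a small partner of Nrf2, had 0.14. Of 19 other thiol redox enzymes, 13 lay below 0. Sesn3 and Sesn1, sestrins that respond to stress and to FoxO factors, both had -0.22, with unadjusted p-values of 0.0590 and 0.0673.

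**Figure D4:**
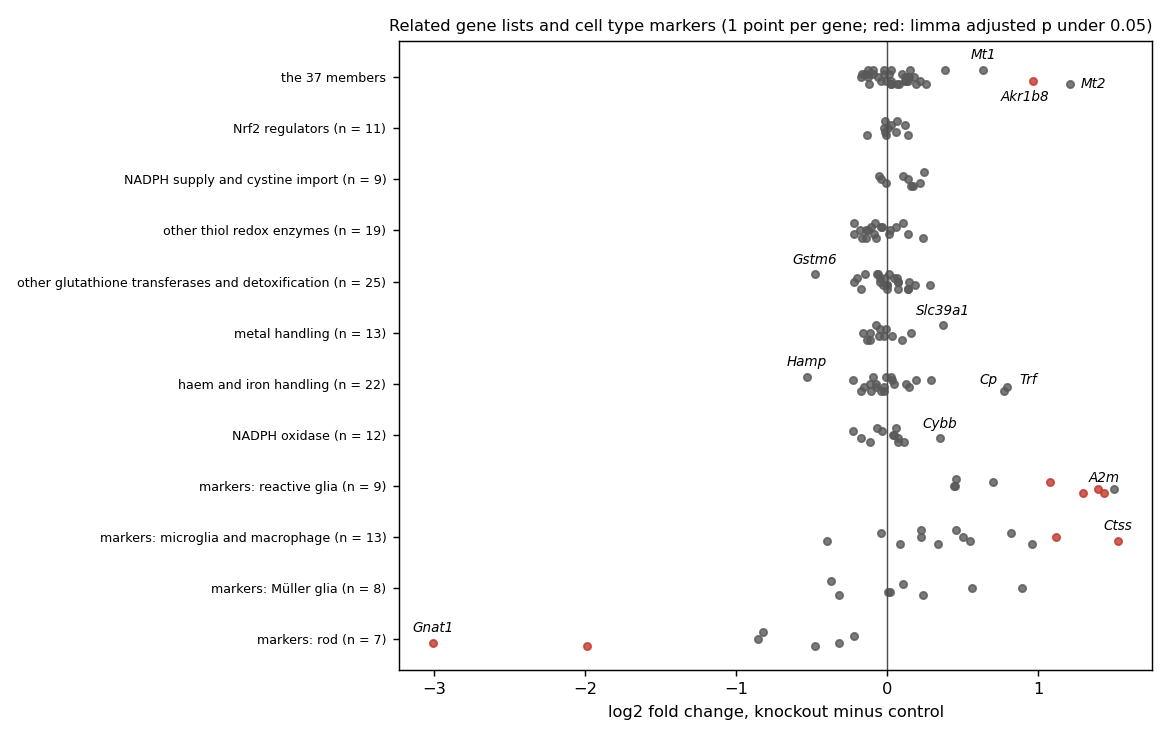
Log2 fold change, knockout minus control, of the 37 members, of 7 lists of related genes and of 4 lists of cell type markers, with 1 point per gene and called genes in red. The related lists centre near 0 with Cp and Trf to the right, all 9 reactive glia markers lie above 0, and all 7 rod markers lie below 0.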

How the data were processed

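Per the labels' protocols, retinal RNA was extracted with TRIzol LS and RNeasy and amplified with a NuGEN kit before hybridisation. The 21897 probe sets of the 4 arrays, 2 per genotype, carry log2 values deposited by the authors. The scale was read from the values (1.34 to 12.75), since no source states it. The tools affy and limma appear in the submitters' processing notes, with neither version nor role. No method of background correction or normalization is given in the sources used here. Array medians lay between 5.99 and 6.04, so the deposited scale was kept. Any pair of arrays correlated at 0.987 to 0.990 (Pearson, over probe sets). No detection values were used, so low levels may be background, and the number of arrays limits the precision.

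Probe sets with 1 symbol in the platform annotation (20877) were kept and those with several (175) or none (845) left out. Symbols were checked by gene ID against RefSeq names of GRCm38.p6 (36 IDs unmatched, 0 symbols changed). Knockout was compared with control over all 19421 genes with limma 3.58.1 in R 4.3.3 (lmFit, eBayes, two-sided, Benjamini-Hochberg), with genotype as the single term, and called at an adjusted p under 0.05. Intervals are 95% and unadjusted. The fit was tested on simulated data with independent noise on each array. That noise held no difference between replicate numbers, so the simulation does not cover the sex difference between replicates. Pools come from different animals, so p-values measure the spread between pools. An exact permutation of 2 against 2 arrays cannot go below 0.333.

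The members and all gene lists were chosen with earlier results of these data known. A member has each array's value printed if called, at an unadjusted p under 0.05, at an absolute log2 fold change of at least 0.5, or if it is Nfe2l2, Keap1, Mt1, Mt2 or Mt3, and some further members are printed so beside their ranges. Each related list names its called genes and the 2 with the smallest p. Tried besides were a replicate block, leaving out each array, quantile normalization, median centring, the mean of probe sets, a filter at the 25th percentile of mean signal, and a variance trend.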

Additional observations from a re-analysis of the deposited data

How the results depend on the processing

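With 2 arrays per group, the number of called genes moved with the setting. It was 39 in the main comparison, 8 with the replicate number as a block and 128 with a variance trend, and between 0 and 11 without 1 of the arrays (0 without either control replicate, where limma left 1355 and 1328 genes at an unadjusted p under 0.05). Members called numbered 1 (Akr1b8), and 0 with the replicate block and without any 1 array, where 2 to 6 members had an unadjusted p under 0.05 (2 without knockout replicate 2). Akr1b8 stayed called after quantile normalization, median centring, the mean of probe sets, the signal filter and the variance trend, and its log2 fold change ran from 0.90 to 1.03 over the 10 alternatives. Akr1b8 has 1 probe set, so the mean of probe sets could not change its own values. The signal filter used the mean over all 4 arrays, knockout included, so it does not test whether the control level is background. Related genes at an unadjusted p under 0.05 numbered 9, and 3 to 8 without 1 array (3 without knockout replicate 2, 4 without control replicate 2). Cp and Trf were called with the variance trend (adjusted p = 0.0334 and 0.0449). Without 1 array, the members at an unadjusted p under 0.05 were not the same in each fit, and not all were higher in the knockout. In those fits Nfe2l2 ranged from -0.0779 to 0.31, Keap1 from -0.0174 to 0.22 and Mt3 from -0.0127 to 0.29. Ftl1 ranged from -0.55 to 0.29 and Nqo1 from -0.32 to 0.13. Over all alternatives the sign of the difference was unchanged in 16 of 37 members and changed at least once in 21, among them none of Akr1b8, Mt1, Mt2, Gstm1 and Txnrd1. The cause of these shifts was not tested, apart from fewer arrays where 1 was left out. Same-numbered arrays deviated together (Pearson's r = 0.239 across genes, which are not independent), but the labels do not say that a number pairs the pools, and the block changed no other call among members. By Xist the replicate number coincided with sex in both groups. The block therefore cannot tell sex from any other difference between the numbers. The signal filter left out 2 members, Nqo1 and Sod3.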
